A study of Arabidopsis thaliana with 18 samples.

Results

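The FUL-SOC1 and FUL-SEP3 mixtures were compared by the genomic sites at which each was recorded in DAP-seq. In DAP-seq, a tagged transcription factor made in vitro is incubated with naked, fragmented genomic DNA, and the fragments it holds are recovered and sequenced. FRUITFULL (FUL) carried a 3×FLAG tag in both mixtures, and its partner, SOC1 or SEP3, carried none. The 2 mixtures are 2 of 5 protein mixtures in 18 samples, 3 replicates each of FUL, FUL-SOC1, FUL-AG, FUL-SEP3 and FUL-AG-SEP3 and 3 of the input. All received 400 ng of a DNA library from 2-week-old Arabidopsis thaliana Col-0 seedlings, and the libraries were amplified over 20 PCR cycles. A partner was added by equal amounts of plasmid, and only FUL was tagged, so FUL bound with its partner and FUL bound with itself cannot be told apart in either mixture. The study used FUL-SEP3 as a control mixture.

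Each mixture has a single peak list, called on its 3 replicates combined and against the same input, so there is no value per replicate and no spread between replicates. The comparison therefore describes 2 lists and carries no p-value. Intervals are 95% Wilson intervals of a share of peaks, or 95% Newcombe intervals of a difference of shares, and cover counting error over peaks only. The methods give only a range of reads per sample, so the number of reads behind each list is unknown. The 5 lists hold 16010 nuclear peaks, and the members are the 4809 of FUL-SOC1 and the 1379 of FUL-SEP3. They were split by position into peaks that overlap a peak of the other list by at least 1 bp (shared) and peaks that do not (only in FUL-SOC1, only in FUL-SEP3).

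FUL is a MADS-domain protein that acts in the shoot meristem, in the transition to flowering and in the fruit. SOC1 is a MADS-domain protein of the meristem that integrates flowering signals, and SEP3 is a floral MADS-domain protein that joins organ identity proteins into tetramers. MADS-domain dimers bind CArG-boxes, in which CC is followed by 6 bases that are A or T and then by GG, and A/T-rich runs in and beside the box narrow the minor groove that the protein contacts.

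The sequences below are the CArG-box nearest to the consensus in the peaks of highest rank in each class, shown because the boxes and the bases beside them are compared between the classes. The box is in capitals and the 10 bases on either side are in lower case, all on the forward strand of TAIR10. Highest of the peaks only in FUL-SOC1 were those nearest to AT1G75620, which encodes a glyoxal oxidase-related protein, to AT2G06025, which encodes an acyl-CoA N-acyltransferase family protein, and to AT1G05413, a long non-coding RNA.
AT1G75620, chr1:28398126-28398155, 1 mismatch: tgtacaccttCCTATTTTGTacaccacata
AT2G06025, chr2:2351030-2351059, 2 mismatches: gagtttaatgCTATTAAAAGaagatgtaaa
AT1G05413, chr1:6446792-6446821, 1 mismatch: tagaaaaatgCCATTTATGTattacatatc

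Highest of the peaks only in FUL-SEP3 were those nearest to the pseudogenes AT1G42320, AT1G36720 and AT5G32254. These 3 windows have 32, 42 and 26 near-identical copies elsewhere in the genome (at least 90% identity over at least 100 bp), where reads cannot be placed with certainty. The 3 highest peaks with no such copy, chosen after the values were seen, lie nearest to AT5G58900, to CBF2, a transcription factor of the cold response, and to PYL1, an abscisic acid receptor.
AT1G42320, chr1:15805584-15805613, 0 mismatches: tgtgcggtttCCAAAAATGGaaaatttccc
AT1G36720, chr1:13889080-13889109, 0 mismatches: tgtgcggtttCCAAAAATGGaaagtttcct
AT5G32254, chr5:11912503-11912532, 1 mismatch: ctcatctttaCCACTTTTGGttaaagcact
AT5G58900, chr5:23788375-23788404, 0 mismatches: gtaggttttgCCATTTTTGGtacaactaat
CBF2, chr4:13015400-13015429, 0 mismatches: agctataataCCAAAAATGGaaataaaaat
PYL1, chr5:18984831-18984860, 2 mismatches: aatggctatcACATAAATGTcattaggcac

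The 3 highest shared peaks, by the mean of both ranks, lie nearest to the pseudogenes AT3G43526, AT3G15602 and AT1G45140. The windows at AT3G43526 and AT3G15602 have 6 near-identical copies each, and the 30 bases printed for them are the same sequence on opposite strands.
AT3G43526, chr3:15422890-15422919, 1 mismatch: gtttgaagtaCTATTTATGGtataactggt
AT3G15602, chr3:5286029-5286058, 1 mismatch: accagttataCCATAAATAGtacttcaaac
AT1G45140, chr1:17072354-17072383, 0 mismatches: gatatctgggCCAATAAAGGctaaattaac

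Most FUL-SEP3 sites were also FUL-SOC1 sites, whereas most FUL-SOC1 sites were not FUL-SEP3 sites. Of the 1379 FUL-SEP3 peaks, 830 overlapped a FUL-SOC1 peak (60.2%, 57.6% to 62.7%), and 549 did not. Of the 4809 FUL-SOC1 peaks, 829 overlapped a FUL-SEP3 peak (17.2%, 16.2% to 18.3%), and 3980 did not. The lists differ in length, so these shares are not symmetrical. With the FUL-SOC1 list reduced to its 1379 peaks of smallest p, 31.7% of the FUL-SEP3 peaks had a partner.

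The split did not hinge on near misses. The smallest overlap counted as shared was 24 bp, and only 1 shared FUL-SEP3 peak overlapped its partner by 50 bp or less. On the other side of the limit, the smallest gap between a peak only in FUL-SEP3 and a FUL-SOC1 peak was 53 bp, only 1 such peak lay within 100 bp of one, and the median gap was 10162 bp. Shared peaks had their summits, the positions of highest coverage, close together. The median distance between the summits was 21 bp, and 651 of the 830 pairs lay within 50 bp.

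The strongest sites of the lists coincided only in part. With each list limited to its 1000 smallest p-values, 281 peaks of each overlapped one of the other 1000 (28.1%, 25.4% to 31.0%). Of the same 1000 FUL-SOC1 peaks, 362 had a partner somewhere in the whole FUL-SEP3 list, and of the 1000 FUL-SEP3 peaks, 611 had one in the whole FUL-SOC1 list. Among the 100 peaks of smallest p, 17 were common to both, although 63 of the FUL-SOC1 and 76 of the FUL-SEP3 peaks had a partner in the other whole list. Many of these peaks thus had a partner outside the 100 of the other list.

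In both lists the share of peaks with a partner was higher at the top of the list than at its bottom. The deposited fold enrichment is the pooled pileup over the local background at the summit, and was ranked only within its own list. In the lowest 10% of FUL-SOC1 peaks by fold, 7.42% had a FUL-SEP3 partner (5.38% to 10.1%), and in the highest 10% 44.1% had one (39.7% to 48.6%). In the lowest 10% of FUL-SEP3 peaks 54.0% had a FUL-SOC1 partner (45.7% to 62.1%), and in the highest 10% 80.4% had one (73.0% to 86.2%). Even so, 266 of the 476 FUL-SOC1 peaks in the highest 10% had no FUL-SEP3 partner.

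**Figure D1:**
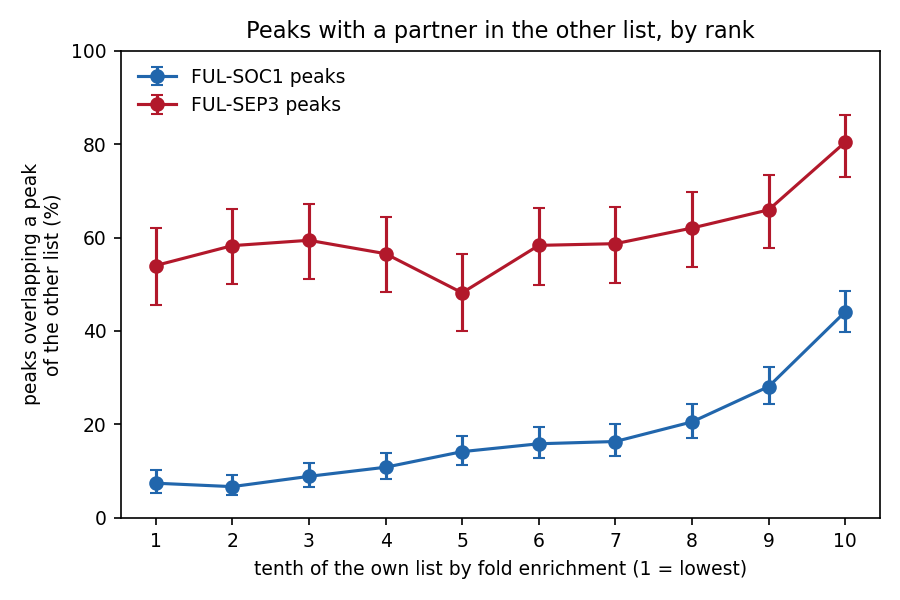
Share of peaks that overlap a peak of the other list (%), in 10 equal parts of the own list by fold enrichment, for the 4809 FUL-SOC1 and 1379 FUL-SEP3 nuclear peaks. Bars are 95% Wilson intervals over peaks. The FUL-SOC1 share goes from 7.42% to 44.1% between the lowest and the highest part, and the FUL-SEP3 share is 54.0% in the lowest and 80.4% in the highest.

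Shared FUL-SOC1 peaks had a median percentile of 73.4 in their list (quartiles 47.3 and 90.3), against 46.2 for those only in FUL-SOC1 (22.5 and 70.1). In the FUL-SEP3 list the medians were 53.7 (25.7 and 78.9) for shared peaks and 44.4 (22.9 and 67.8) for those only in FUL-SEP3. Peaks of both classes without a partner therefore covered the whole range of ranks. The highest fold was 6.01 among peaks only in FUL-SOC1, where the whole list reaches 6.51, and 7.45 among peaks only in FUL-SEP3, where the whole list reaches 10.6. A percentile depends on the length of its list, and shared peaks stood higher in the longer FUL-SOC1 list as a whole, so a percentile of one list is not compared with that of the other.

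The peak at AT3G43526 had the highest fold of the FUL-SEP3 list (10.6) and a fold of 6.10 with FUL-SOC1, where 0.0624% of the peaks were higher. The peak at AT3G15602 had the highest fold of the FUL-SOC1 list (6.51), and 0.290% of the FUL-SEP3 peaks were above its fold of 8.43 there. Neither site separated the mixtures. By contrast, the peak 1444 bp upstream of the AT1G75620 start (chr1:28397837-28398336, between genes) had a fold of 6.01 with FUL-SOC1, and the nearest FUL-SEP3 peak was 18748 bp away. The peak nearest to the CBF2 start (chr4:13015270-13015573) had its summit in a 3′ UTR, with a fold of 6.46 and no FUL-SOC1 peak within 18283 bp. The AT1G75620 and CBF2 peaks both also overlapped peaks of the FUL, FUL-AG and FUL-AG-SEP3 lists. Each was thus missing only from the other list of this comparison, and neither was particular to its mixture.

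The classes differed in how often their peaks were listed for the other 3 mixtures. All 5 lists were called against the same input, so their overlaps are not independent, and the counts are given side by side as a description. The FUL list holds 2572 nuclear peaks, that of FUL-AG 2814 and that of FUL-AG-SEP3 4436. Of the 549 peaks only in FUL-SEP3, 388 were also in the list of FUL alone (70.7%, 66.7% to 74.3%). Of the 3980 peaks only in FUL-SOC1, 565 were (14.2%, 13.1% to 15.3%). The site set that FUL-SEP3 had and FUL-SOC1 lacked was thus mostly also listed for FUL without any added partner, and the set that FUL-SOC1 had and FUL-SEP3 lacked mostly was not. The difference was 56.5 percentage points (52.4 to 60.3).

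In the FUL-AG-SEP3 list the shares were 69.6% (65.6% to 73.3%) of the peaks only in FUL-SEP3 and 37.4% (35.9% to 38.9%) of those only in FUL-SOC1. In the FUL-AG list they were 37.9% (33.9% to 42.0%) and 24.9% (23.6% to 26.3%). Both classes were thus listed more often for FUL-AG-SEP3, the longer list, than for FUL-AG. With the 1000 smallest p of each list, this order did not hold for the FUL-SOC1 class. Of its 719 peaks without a partner, 18.6% were in FUL-AG and 17.5% in FUL-AG-SEP3. For the FUL-SEP3 class the shares were 32.4% and 39.5%. Over the whole lists, shared peaks were in all cases listed most often, with 78.8% in FUL, 75.1% in FUL-AG and 94.2% in FUL-AG-SEP3, taken from the FUL-SEP3 side. In none of the other 3 lists were 2206 of the peaks only in FUL-SOC1 found and 68 of those only in FUL-SEP3.

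**Figure D2:**
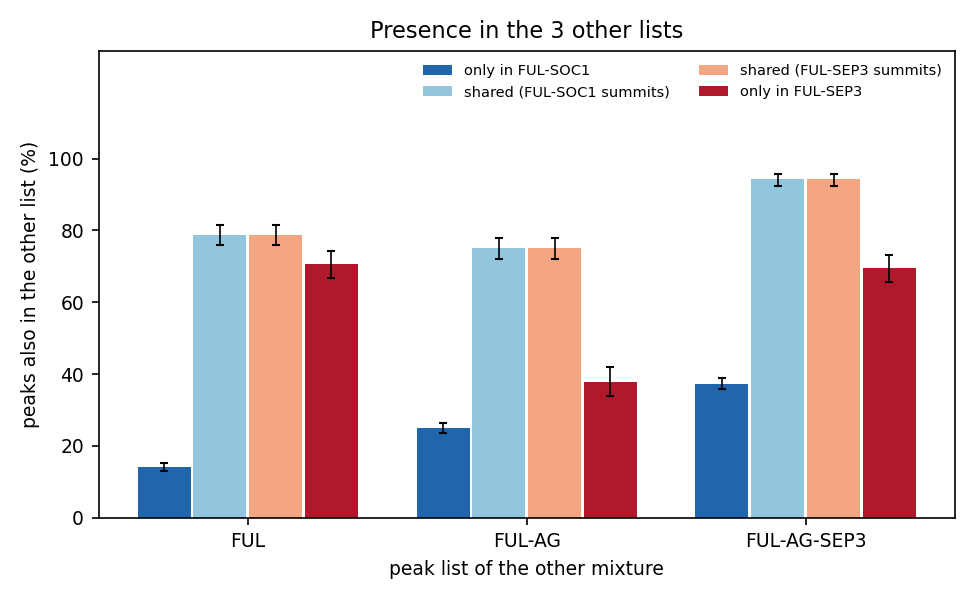
Share of peaks (%) that overlap a peak of the FUL, FUL-AG or FUL-AG-SEP3 list by at least 1 bp, for peaks only in FUL-SOC1 (n = 3980), shared peaks by the summits of either list (n = 829 and 830) and peaks only in FUL-SEP3 (n = 549). Bars are 95% Wilson intervals over peaks. Peaks only in FUL-SEP3 reach 70.7% in the FUL list, against 14.2% for peaks only in FUL-SOC1.

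The 68 peaks found with FUL-SEP3 and in no other list ranked low, at a median percentile of 32.0 against 49.1 for the 481 that were in another list. For FUL-SOC1 the medians were 42.4 for the 2206 peaks in no other list and 49.6 for the other 1774. Within the 1000 smallest p-values, the contrast with FUL was as wide. Of the 719 FUL-SEP3 peaks there without a partner among the 1000 of FUL-SOC1, 560 were in the whole FUL list (77.9%), and of the 719 FUL-SOC1 peaks 157 were (21.8%).

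CArG-boxes were present in most windows of every class, and least often in the class only in FUL-SOC1. A box with at most 1 mismatch, on either strand, lay in the 200 bp around the summit of 67.3% (65.8% to 68.7%) of the peaks only in FUL-SOC1, 73.4% (69.6% to 76.9%) of those only in FUL-SEP3 and 79.6% (76.8% to 82.2%) of the shared FUL-SEP3 peaks. In control windows 1000 bp to the right of the summits the shares were 21.8% to 23.0% in these classes. The 2 unshared classes differed by 6.14 percentage points (2.03 to 9.96). In 300 bp windows this difference was 0.95 points, with an interval that included 0, and in 100 bp windows 10.9 points (6.52 to 15.1).

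Exact boxes separated the classes further. They lay in 11.7% (10.7% to 12.7%) of the windows only in FUL-SOC1, 21.1% (17.9% to 24.7%) of those only in FUL-SEP3 and 23.0% (20.3% to 26.0%) of the shared FUL-SEP3 windows, and in 1.18% or less of the control windows. The class only in FUL-SOC1 thus had the fewest exact boxes, and the other classes overlapped in their intervals. Related elements were again rarest only in FUL-SOC1. CC followed by 7 A or T and a single G, or its reverse complement, lay in 26.0% of the windows only in FUL-SOC1 and in 39.7% of those only in FUL-SEP3 (control windows 7.46% and 6.74%). C, 8 A or T, and G lay in 20.4% and 38.4% (526 of 3980 and 77 of 549 control windows).

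**Figure D3:**
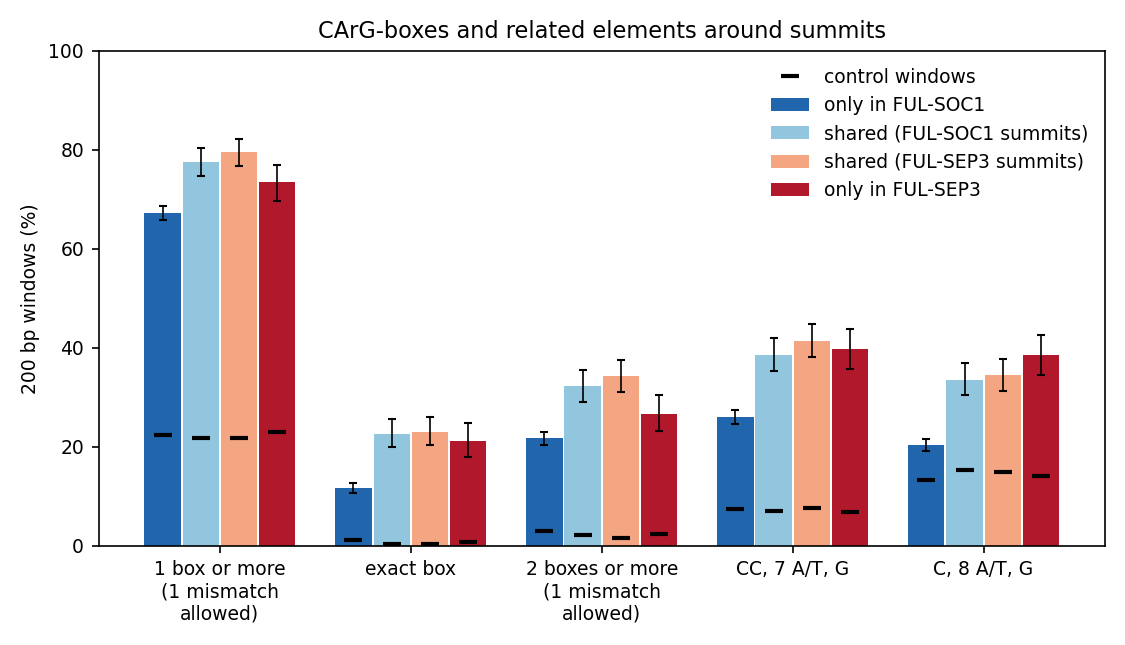
Share of 200 bp windows around summits (%) that hold a CArG-box with at most 1 mismatch, an exact box, 2 or more boxes with at most 1 mismatch, CC with 7 A or T and G, or C with 8 A or T and G, by class of peak. Error bars are 95% Wilson intervals, and black dashes are the control windows 1000 bp to the right. Windows only in FUL-SOC1 are lowest for every element, with 11.7% for the exact box against 21.1% only in FUL-SEP3.

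In its number of boxes per window, the class only in FUL-SOC1 was again lowest. It held 0.93 ± 0.82 boxes with at most 1 mismatch per window (mean ± SD over 3980 windows), against 1.08 ± 0.89 only in FUL-SEP3 (549 windows) and 1.24 ± 0.91 in shared FUL-SEP3 windows (830 windows). At least 2 boxes lay in 21.7% (20.4% to 23.0%), 26.6% (23.1% to 30.4%) and 34.2% (31.1% to 37.5%) of these windows. Control windows had 2 or more boxes in 2.86% of cases or fewer. Tetramers of MADS-domain proteins can hold a pair of boxes at once, which is why the number and the spacing of boxes were examined.

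Neighbouring boxes lay closer together in windows only in FUL-SEP3 and in shared windows than in those only in FUL-SOC1. The median distance between their centres was 34.5 bp only in FUL-SEP3 (190 pairs of boxes), 38 bp in shared FUL-SEP3 windows (370 pairs) and 48 bp only in FUL-SOC1 (1021 pairs). A distance of 30 bp or less was found in 36.8% (30.3% to 43.9%) of the pairs only in FUL-SEP3 and in 26.0% (23.4% to 28.7%) of those only in FUL-SOC1, a difference of 10.9 points (3.79 to 18.4). Control windows of these classes held few pairs, with medians of 50.5 and 63 bp, and 35.7% and 24.0% of their pairs lay within 30 bp.

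Whole helical turns between boxes were not more frequent than among all distances. Distances within 2 bp of a whole number of helical turns made up 38.9% (32.3% to 46.0%) of the pairs only in FUL-SEP3 and 32.2% (29.4% to 35.2%) of those only in FUL-SOC1, and 40.3% of all distances from 10 to 190 bp meet this condition. Pairs only in FUL-SOC1 were thus below the share of all distances. In control windows the shares were 35.7% of 14 pairs only in FUL-SEP3 and 44.0% of 125 pairs (35.6% to 52.8%) only in FUL-SOC1. The difference between the classes was 6.72 points (-0.54 to 14.3). With up to 2 mismatches allowed it was 6.67 points (3.89 to 9.49), at 41.8% of 1340 and 35.1% of 10026 pairs. The classes thus differed there, with FUL-SOC1 below the share of all distances and neither clearly above it.

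The bases beside the box differed widely between the classes. For each window with a box of at most 1 mismatch, the box with the fewest mismatches was taken, and the 3 bases on either side were read. All 6 were A or T in 35.1% (30.6% to 39.9%) of the 402 boxes only in FUL-SEP3 and in 11.4% (10.2% to 12.6%) of the 2659 boxes only in FUL-SOC1. The boxes of shared peaks lay between, at 25.1% (21.9% to 28.6%) of 657 from the FUL-SEP3 side and 23.8% (20.7% to 27.3%) of 638 from the FUL-SOC1 side. The difference between the unshared classes was 23.7 points. Without windows that have near-identical copies the shares were 31.9% and 11.8%, a difference of 20.1 points (15.3 to 25.3).

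Set against control windows, the boxes only in FUL-SOC1 stood close to the background in the share with 6 of 6 A/T. Chance boxes in their control windows had 6 of 6 A/T in 8.98% of 857 cases, and those of the class only in FUL-SEP3 in 15.7% of 121. The windows themselves differed less, with 35.4% G and C only in FUL-SOC1 and 33.0% only in FUL-SEP3 (control windows 36.1% and 35.4%), and the part of base composition in the flanks was not tested. On average 4.97 ± 1.01 of the 6 flanking bases were A or T only in FUL-SEP3 and 4.20 ± 1.13 only in FUL-SOC1 (mean ± SD over 402 and 2659 boxes).

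The distance of 2 bp from the box separated the classes most. A or T stood there on both sides in 77.9% (73.5% to 81.6%) of the boxes only in FUL-SEP3 and in 52.7% (50.8% to 54.6%) of those only in FUL-SOC1. At 1 bp the shares were 59.7% and 44.9%, and at 3 bp 71.1% and 50.4%. Control windows of the class only in FUL-SEP3 had 53.7% at 2 bp, 52.9% at 1 bp and 47.1% at 3 bp. Those of the class only in FUL-SOC1 had 47.1% (43.8% to 50.5%), 44.1% and 43.3% (40.0% to 46.6%). Boxes only in FUL-SOC1 were thus above their controls at 2 and 3 bp, by less than those only in FUL-SEP3. In the sequences printed above, the boxes only in FUL-SEP3 have A or T at all 6 positions nearest to CBF2, AT1G42320, AT1G36720 and AT5G32254 and at 4 nearest to AT5G58900 and PYL1. Those only in FUL-SOC1 have 4 nearest to AT1G75620 and AT2G06025 and 5 nearest to AT1G05413, so single boxes of the classes overlap.

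The flanks also moved with rank, and not in the same way in both lists. Each list was divided into 3 equal parts by p. Among peaks only in FUL-SEP3, boxes with 6 of 6 A/T made up 48.3% (39.4% to 57.3%) in the strongest part, 38.3% (30.8% to 46.3%) in the middle and 20.4% (14.5% to 28.0%) in the weakest. Among peaks only in FUL-SOC1, the shares were 10.1% (8.17% to 12.3%), 11.6% (9.75% to 13.9%) and 12.2% (10.2% to 14.5%), and these intervals overlap. For shared peaks the order depended on which list ranked them. Ranked by FUL-SEP3, the shares were 32.3%, 22.4% and 18.2% from strongest to weakest, and ranked by FUL-SOC1, 19.7%, 27.2% and 34.4%.

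**Figure D4:**
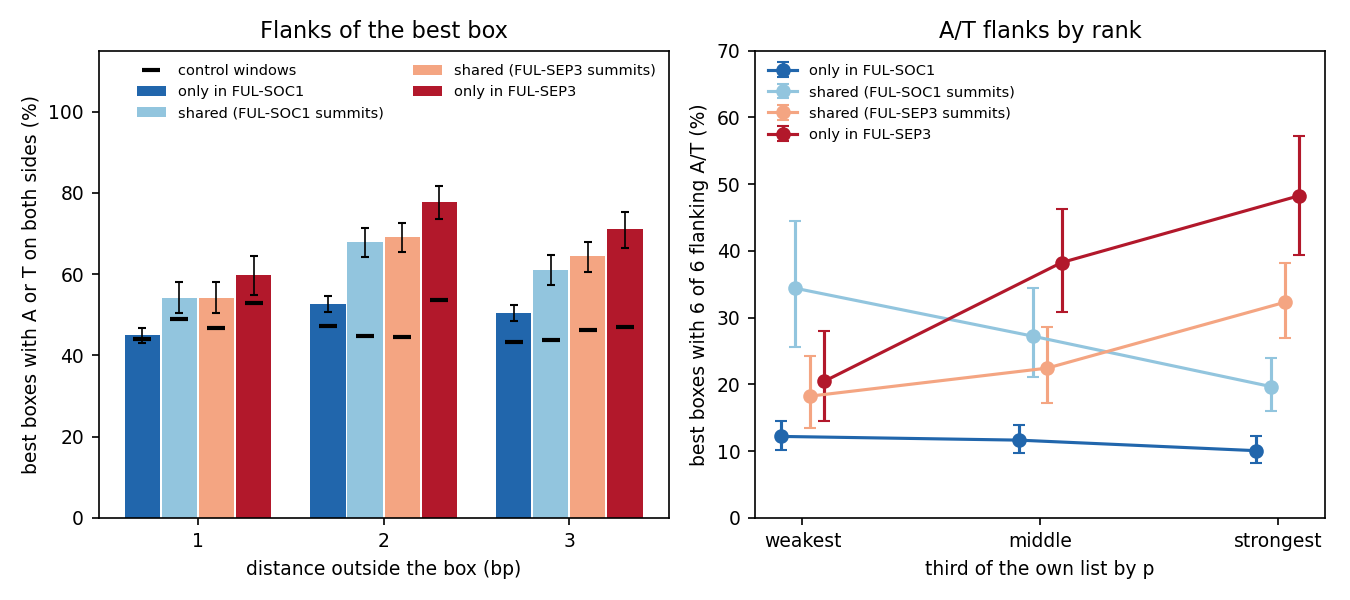
Left, share of best boxes (at most 1 mismatch) with A or T on both sides at 1, 2 and 3 bp outside the box (%), by class, with control windows as black dashes. Right, share of best boxes with A or T at all 6 flanking positions (%), by the 3 equal parts of the own list in p. Error bars are 95% Wilson intervals over boxes. Boxes only in FUL-SEP3 go from 20.4% to 48.3% between the weakest and the strongest part, and boxes only in FUL-SOC1 stay between 10.1% and 12.2%.

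Presence in the list of FUL alone went with the flanks in both classes. Of the boxes only in FUL-SEP3, 41.6% (36.1% to 47.3%) had 6 of 6 A/T where the peak was also in FUL and 20 of 111 boxes (12.0% to 26.2%) had them where it was not. Of the boxes only in FUL-SOC1, 20.7% (17.1% to 24.8%) had them where the peak was in FUL and 9.60% (8.45% to 10.9%) where it was not. Within either part, the class only in FUL-SEP3 had the higher share, and the part of FUL's own sites in the difference was not tested.

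The box itself differed at its edges. Both outer bases, the first C and the last G, were kept in 82.1% (78.0% to 85.5%) of the boxes only in FUL-SEP3 and in 65.4% (63.5% to 67.1%) of those only in FUL-SOC1 (control windows 51.2% and 59.9%). Among boxes with exactly 1 mismatch, the mismatch was at an outer base in 41.9% of 2198 only in FUL-SOC1 and in 25.2% of 286 only in FUL-SEP3. It was at the inner C or G in 39.4% and 63.6%, and in the A/T core in 18.7% and 11.2%. Boxes only in FUL-SOC1 thus placed their mismatch much as control windows did (42.5% outer, 38.1% inner and 19.4% core).

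An unbroken run of 4 A or 4 T in the core was found in 52.0% (47.1% to 56.8%) of the boxes only in FUL-SEP3 and 42.9% (41.1% to 44.8%) of those only in FUL-SOC1, against 33.1% and 34.0% in control windows. The exact box CCAAAAATGG (or its reverse complement) was the most frequent in both classes, in 39 of the 116 exact-box windows only in FUL-SEP3 (33.6%) and 81 of 465 only in FUL-SOC1 (17.4%). The classes differed less without repeats. Without windows that have near-identical copies the shares were 21.6% (14.6% to 30.8%) of 97 and 17.9% (14.4% to 22.0%) of 391, whose intervals overlap.

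Words of 6 bases were counted without reference to a box. AAAAAT, on either strand, lay in 60.7% of the windows only in FUL-SEP3 and in 41.8% of those only in FUL-SOC1 (control windows 39.2% and 38.1%). GAAAAA lay in 47.5% and 29.2%, and AAAAAA in 53.6% and 35.3%. In the other direction, ACATCT lay in 12.7% of the windows only in FUL-SOC1 and 6.01% of those only in FUL-SEP3, CTGATA in 10.6% and 4.19%, and AATTGG in 17.8% and 11.5%. Against the control windows these words differed. For ACATCT the controls had 11.7% and 12.9%, near the share only in FUL-SOC1 and above that only in FUL-SEP3. For CTGATA they had 8.09% and 8.74%, between both shares. For AATTGG they had 12.4% and 11.5%, below the share only in FUL-SOC1 and equal to that only in FUL-SEP3.

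Within the 1000 smallest p-values, the flanks kept this order. All 6 bases were A or T in 37.0% (33.1% to 41.0%) of the 565 boxes of FUL-SEP3 peaks without a partner there and in 8.61% (6.52% to 11.3%) of the 534 boxes of FUL-SOC1 peaks without one. Both outer bases were kept in 81.9% and 65.7%. The share of windows with any box differed less, at 78.9% (75.7% to 81.7%) and 74.5% (71.2% to 77.6%), and the interval of this difference included 0 (-0.06 to 8.66 points).

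Compared with peaks only in FUL-SOC1, those only in FUL-SEP3 lay nearer to starts, more rarely in coding sequence and more often between genes. Summits fell in coding exons in 16.0% (14.9% to 17.2%) of the peaks only in FUL-SOC1, 87 of 830 shared FUL-SEP3 peaks (8.58% to 12.8%) and 7.65% (5.71% to 10.2%) of those only in FUL-SEP3. Control positions 1000 bp to the right did so in 27.7% and 26.7% of cases and in 137 of 549. All classes were thus below their controls, and the class only in FUL-SEP3 furthest.

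In 5′ UTRs lay 9.29% (7.14% to 12.0%) of the summits only in FUL-SEP3 and 4.55% (3.94% to 5.24%) of those only in FUL-SOC1, against 4.01% and 5.08% of control positions. The kilobase upstream of a start held 26.6% (23.1% to 30.4%) and 21.0% (19.8% to 22.3%), with 23.1% and 16.9% of control positions, so that the excess over the control was no larger only in FUL-SEP3. Introns held 18.8% and 21.4%, a difference whose interval included 0, with 10.4% and 16.9% of control positions. Sequence between genes, outside that kilobase, held 25.5% (22.0% to 29.3%) and 20.1% (18.9% to 21.3%), with 22.6% and 18.5% of control positions. The median distance from summit to nearest start was 785 bp only in FUL-SEP3 and 1060 bp only in FUL-SOC1, and 57.2% and 48.1% lay within 1 kb. At control positions the medians were 939 and 996.5 bp, and 51.9% and 50.2% lay within 1 kb.

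The nearest gene was taken as the one whose transcription start lay nearest to the summit, among 37899 genes and pseudogenes of TAIR10. FUL-SOC1 peaks had 4417 nearest genes and FUL-SEP3 peaks 1342, of which 865 were the same, 64.5% of the FUL-SEP3 and 19.6% of the FUL-SOC1 genes. In 57 of these 865 genes no FUL-SOC1 peak was shared, so the lists met at the gene and not at the site. Near-identical copies were about as frequent in the classes, at 15.8% of the windows only in FUL-SEP3 and 17.0% of those only in FUL-SOC1.

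Lists of genes of flowering and fruit development, chosen with earlier results of these data known, were then read peak by peak. The study had named SNL4 and SPL14 from FUL-SOC1 peaks of these data, so their place among the FUL-SOC1 genes was known beforehand. It had named HEC3 and SPT from peaks of FUL alone. HEC3 came from loci it reported as significant for FUL alone and for neither FUL-SOC1 nor FUL-AG-SEP3. The lists used here nevertheless hold a HEC3 peak with both of these mixtures. Of all 27444 protein-coding genes, 12.0% were nearest to a FUL-SOC1 peak and 3.75% to a FUL-SEP3 peak. Of 47 flowering-time genes matched, 18 were nearest to a FUL-SOC1 peak (38.3%) and 9 to a FUL-SEP3 peak (19.1%), 7 of them to both. Of 25 floral organ identity genes, 7 were nearest to a FUL-SOC1 peak (28.0%) and 7 to a FUL-SEP3 peak (28.0%), 4 of them to both. Of 23 carpel and fruit genes, 11 (47.8%) and 8 (34.8%) were, 7 to both. These counts include AGL15 and AGL18, which are described below by roles in flowering and had peaks of both mixtures. With peaks assigned by gene body or 3 kb upstream, FUL-SOC1 met 24 flowering-time, 10 floral organ identity and 9 carpel and fruit genes. FUL-SEP3 met 9, 6 and 5 of the same lists. The share of all genes that meet a peak under this rule was not computed. Counts by gene body or 3 kb upstream, here and below, are therefore not to be set against 12.0% or 3.75%. By nearest start, all 3 lists were above the share of all protein-coding genes with both mixtures, and no test was run on these counts.

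MADS-box genes of flowering time had both shared peaks and peaks of a single list. Percentiles refer to the own list of each peak. At SOC1 itself, both mixtures had a peak 34 or 35 bp upstream of the start, at percentile 94.7 of the FUL-SEP3 list and 79.4 of the FUL-SOC1 list. A second peak, 621 bp upstream (chr2:18811639-18811916, percentile 82.1), was only in FUL-SOC1. AGL19 and AGL14, relatives of SOC1 that promote flowering, and AGL24, a promoter of flowering that works with SOC1, had shared peaks in introns. The AGL19 peak stood at percentile 98.1 with FUL-SOC1 and 91.6 with FUL-SEP3, that of AGL14 at 95.5 and 87.9, and that of AGL24 at 89.9 and 78.9. AGL19 had 2 further peaks only in FUL-SOC1, at 68.7 and 67.2. The flowering repressors MAF4 and FLC, named here although outside the best 8 of the list, were nearest to peaks only in FUL-SOC1, at 53.0 and 10.1. The MAF4 peak lay 2327 bp upstream of the start, in an intron of another gene, and the FLC peak lay in an intron. Boxes from both SOC1 peaks and from the FUL-SEP3 side of the AGL19 intron peak are shown, and do not cover the range. The best box at AGL14 had 1 mismatch. With 2 mismatches, the best boxes at AGL24, MAF4, FLC and the FUL-SOC1 side of the shared AGL19 peak were beyond the limit of 1. The further AGL19 peaks had 2 and 1.
SOC1, shared, chr2:18811152-18811181, 1 mismatch: ttaagaaagaCCAAAAATAGcatattttga
SOC1, only in FUL-SOC1, chr2:18811817-18811846, 0 mismatches: aaaaaaatatCCTTTTTTGGagataaaatt
AGL19, shared, FUL-SEP3 summit, chr4:12026601-12026630, 0 mismatches: acatatatatCCAAATAAGGaaatttattg

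FD, the bZIP partner of the florigen FT, had a shared peak 1816 bp upstream of its start, at percentile 97.4 with FUL-SOC1 and 55.5 with FUL-SEP3, and further peaks only in FUL-SOC1. One of these lay in its coding sequence at percentile 87.9. TEM1, a repressor of FT, had a shared peak at percentiles 56.5 and 38.9. At SNL4, a SIN3-like protein of histone deacetylase complexes, an intronic peak (chr1:26384257-26384600, percentile 98.8) was only in FUL-SOC1, and so were the peaks nearest to SPL14 (percentiles 80.2 and 56.5), a regulator of plant architecture. The SPL14 peak at 80.2 lay in a coding exon, and that at 56.5 lay 5163 bp upstream of the start, in a 3′ UTR of another gene. SVP and SMZ, repressors of flowering, were the 2 genes of the list nearest to FUL-SEP3 peaks and to no FUL-SOC1 peak, at percentiles of 33.5 or lower, and are named for that after their values were seen.

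By nearest start, the floral organ identity genes were split more evenly, with 7 for each mixture. With peaks assigned by gene body or 3 kb upstream, FUL-SOC1 met 10 and FUL-SEP3 6. AP3, a petal and stamen identity gene, had a shared peak in its 5′ UTR at percentile 96.5 with FUL-SOC1 and 92.5 with FUL-SEP3. AP1, the sepal and petal identity gene closest to FUL, had a shared peak 1554 bp upstream at 81.2 and 78.9. AG, the stamen and carpel identity gene, had a shared peak in its intron at 21.0 and 36.8. AG and AP1 each had a further peak only in FUL-SOC1, 850 bp upstream of AG at 46.2 and 274 bp upstream of AP1 at 6.89. SEP2, a floral cofactor, had a 5′ UTR peak only in FUL-SOC1, at 89.7.

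FUL itself had a peak from each mixture, at different places. The FUL-SEP3 peak (chr5:24505014-24505179) lay in an intron at percentile 33.5, and the FUL-SOC1 peak (chr5:24507498-24507881) lay 1373 bp upstream of the start at 10.1. JAG, which promotes organ growth, SUP, which bounds stamens from carpels, and SHP2, which specifies the valve margin, were nearest to peaks only in FUL-SEP3, at percentiles 33.5, 29.1 and 27.4. The boxes of these FUL-SEP3 peaks at FUL, JAG, SUP and SHP2, which are all the peaks only in FUL-SEP3 at genes of this list, are shown with that of the shared AG peak and that of SEP2, the highest peak only in FUL-SOC1. The first 5 have A or T at the 6 flanking positions and the SEP2 box has 5. The other peaks only in FUL-SOC1 at genes of this list had 4 or 5 beside their best box, except that at SHP1, which had 6 beside a box with 2 mismatches. In the other lists, the boxes only in FUL-SEP3 had 5 at HEC2, SMZ, BOP1 and GA20OX3, 6 at SPT, and 4 and 6 at SVP, so the floral genes do not stand for all lists.
FUL, only in FUL-SEP3, chr5:24505043-24505072, 1 mismatch: caaaagtttaCCGTATTTGGtataccgaca
JAG, only in FUL-SEP3, chr1:25684069-25684098, 0 mismatches: cattgtgtatCCATAAATGGaaactttgtt
SUP, only in FUL-SEP3, chr3:8244944-8244973, 1 mismatch: gatgagctttCCTTTTATAGtaagttatgt
SHP2, only in FUL-SEP3, chr2:17819837-17819866, 0 mismatches: aaagggattaCCAAAAAAGGaaagtttcca
AG, shared, chr4:10386521-10386550, 0 mismatches: taattatattCCAAATAAGGaaagtatgga
SEP2, only in FUL-SOC1, chr3:466737-466766, 0 mismatches: atttgtgtaaCCTTATTAGGgtatgtaatg

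Among the carpel and fruit genes, AGL18, a MADS-box gene that delays flowering, had a shared 5′ UTR peak at percentile 96.9 with FUL-SOC1 and 97.3 with FUL-SEP3, over an exact box. The bHLH genes HEC1, HEC2 and HEC3, which act in the transmitting tract and the stigma, differed among themselves. HEC3 had a shared peak at percentile 97.2 with FUL-SEP3 and 80.4 with FUL-SOC1, HEC1 a shared peak at 72.5 and 86.5, and HEC2 a peak only in FUL-SEP3, at 91.2, 3353 bp upstream of its start. ETT, an auxin response factor of gynoecium patterning, and AGL15, a MADS-box gene of embryo and flowering, had shared peaks at 89.0 and 78.8 of the FUL-SOC1 list and at 13.3 and 25.4 of the FUL-SEP3 list. NGA2, a regulator of style development, had a peak only in FUL-SOC1 at 65.8, and STY1, of the same tissue, a shared peak at 65.8 with FUL-SOC1 and 33.5 with FUL-SEP3.

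**Figure D5:**
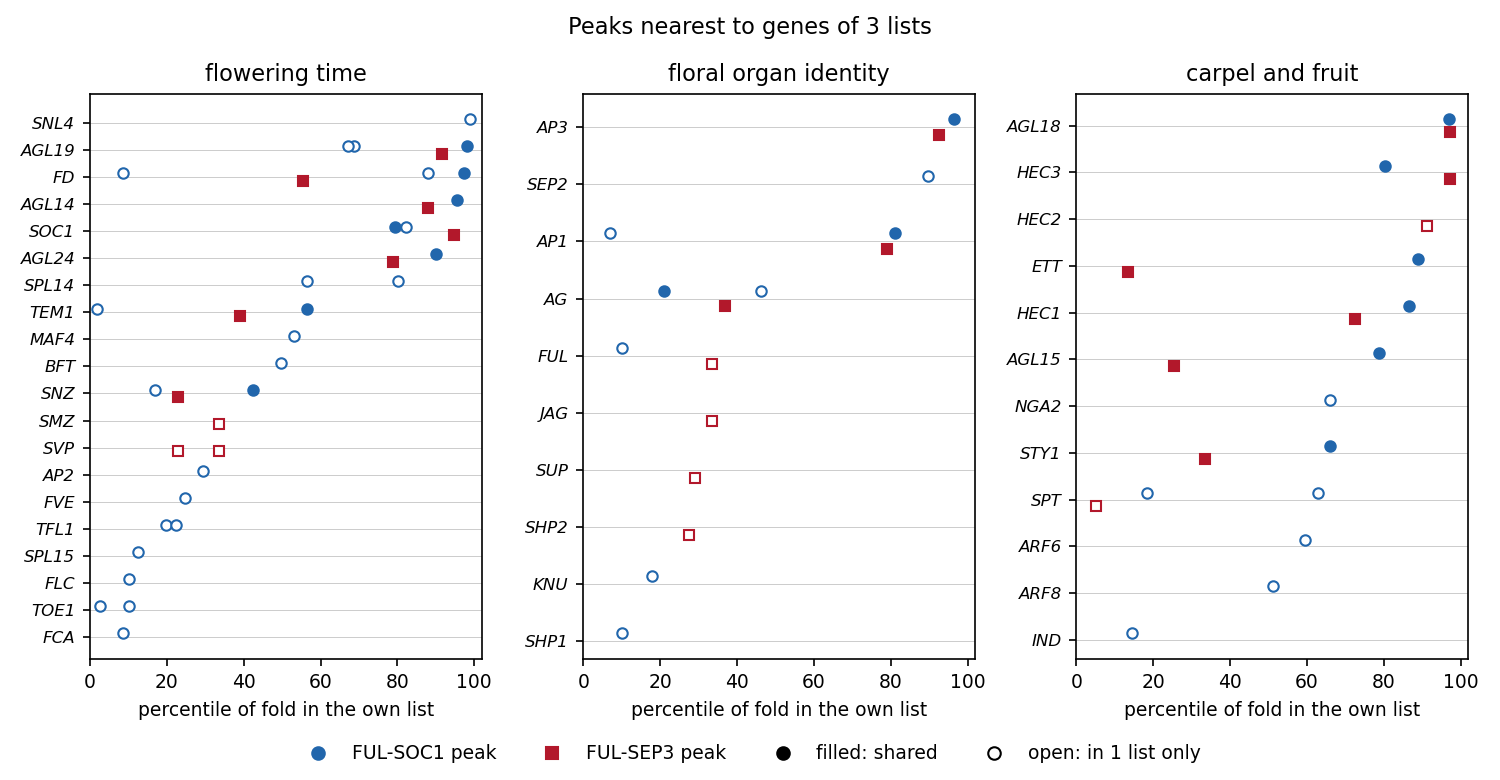
Percentile of fold enrichment within the own list (horizontal axis) of every peak whose nearest gene belongs to the flowering-time, floral organ identity or carpel and fruit list. Blue circles are FUL-SOC1 peaks and red squares FUL-SEP3 peaks, filled where the peak overlaps one of the other list and open where it does not. The shared AP3 peaks stand at 96.5 and 92.5, and the open squares of JAG, SUP and SHP2 between 27.4 and 33.5.

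Enzymes of hormone metabolism leaned to FUL-SOC1 about as all genes did. Of 32 matched genes, 10 were nearest to a FUL-SOC1 peak (31.2%) and 3 to a FUL-SEP3 peak (9.38%), 2 of them to both, beside 12.0% and 3.75% of all protein-coding genes. Both shared cases are cytokinin genes. LOG1, which activates cytokinin, had a shared peak at percentile 99.8 with FUL-SOC1 and 93.5 with FUL-SEP3, and CKX1, which degrades it, one at 86.8 and 99.4. A second CKX1 peak (chr2:17312937-17313279, percentile 92.4) was only in FUL-SOC1. Also only in FUL-SOC1 were peaks at YUC6 of auxin synthesis (97.2), GA3OX3 of gibberellin synthesis (93.1) and IPT3 of cytokinin synthesis (73.4). Only in FUL-SEP3 was a peak at GA20OX3, of gibberellin synthesis (53.0).

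Few meristem and boundary genes had a peak. Of 21 genes, 3 were nearest to a FUL-SOC1 peak and 3 to a FUL-SEP3 peak (14.3% each), beside 12.0% and 3.75% of all protein-coding genes, so that the share is near the background with FUL-SOC1 and above it with FUL-SEP3. With peaks assigned by gene body or 3 kb upstream, FUL-SEP3 met 1 of these genes. CUC3, which sets organ boundaries, had a shared peak at 77.8 with FUL-SOC1 and 14.8 with FUL-SEP3, and KNAT1, a meristem homeobox gene, one at 47.6 and 1.92. BOP1, a boundary gene, had a peak only in FUL-SEP3 at 33.5, and PNF, a homeobox gene of the inflorescence meristem, one only in FUL-SOC1 at 7.36.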

How the data were processed

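DAP-seq was performed with 5 protein mixtures and an input, 3 replicates each. Per the methods, the authors used Trim Galore for trimming, HISAT2 for alignment to TAIR10, MACS2 for narrow peaks of the combined replicates over the input, and ChIPseeker for annotation. Versions are not given in the sources used here. The deposited fold enrichment is a ratio of pileup to local background, the deposited −log10 p-value and −log10 q-value are those of MACS2, and the deposited score, derived from the q-value, was not used. All deposited q-values are below 0.05. The lists hold no counts and the methods give only a range of reads per sample, so the depth behind each list is unknown.

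Peaks on the 5 nuclear chromosomes were compared by position, and mitochondrial peaks were left out. Gene parts were assigned by summit in the order coding exon, 5′ UTR, 3′ UTR, other exon, intron, 1 kb upstream, intergenic. Windows of 200 bp around summits and 1000 bp to the right of them (controls) were read from the TAIR10 nuclear chromosomes, with sequences and annotation credited to RefSeq (TAIR10.1). Boxes were 10 bp long with at most 1 mismatch, and the best box had the fewest mismatches and then lay nearest to the summit. Copies were found with BLAST 2.17.0. The named peaks are the 3 of highest fold in each class, up to 8 genes per list by best percentile (others are named in the text after their values were seen), and the 6-base words with the largest differences, 3 in each direction. Of the listed symbols, 47 of 48 flowering-time, 25 of 25 floral, 23 of 24 carpel and fruit, 21 of 21 meristem and 32 of 34 hormone genes matched the annotation. The members and lists were chosen with earlier results of these data known. Overlaps, nearest starts, boxes and flanks were tested on simulated data. A planned correlation of ranks across shared peaks was left out because the lists share their input. Python 3.11.15, NumPy 2.4.6, SciPy 1.17.1, pandas 2.3.3, statsmodels 0.14.6 (intervals) and Matplotlib 3.10.9 were used.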

Additional observations from a re-analysis of the deposited data

Results flagged for a closer look

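Peaks on the mitochondrial genome entered none of the comparisons, although they were called above the input. The FUL-SOC1 list holds 22 of them, with folds from 1.46 to 2.48, and the FUL-SEP3 list holds 11, with folds from 1.53 to 3.50. Of the 11, 9 overlapped a mitochondrial FUL-SOC1 peak.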

How the results depend on the processing

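Of 57 alternatives for 24 results, 37 stayed within the interval of the reported value (or within 1.5 times a count) and 20 moved, none with a change of direction. The share of FUL-SOC1 and of FUL-SEP3 peaks with a partner was 15.1% and 52.6% with an overlap of 50% of both peaks, 15.9% and 55.5% with summits within 100 bp, 18.5% and 55.4% with q below 0.0001 in both lists, 28.1% and 28.1% with the 1000 smallest p, and 31.6% and 31.7% with equal numbers of peaks. With summits within 100 bp, 39.7% of the highest 10% of FUL-SOC1 had a partner. With protein-coding genes alone, 68.2% of the FUL-SEP3 genes were FUL-SOC1 genes. The excess of windows with a box only in FUL-SEP3 was 10.9 points in 100 bp and 0.95 points in 300 bp windows. The excess of 6 of 6 A/T flanks was 32.5 points among exact boxes, and 20.1 points without near-identical copies, an alternative chosen after seeing the data. The excess of peaks only in FUL-SEP3 in the FUL list was 51.7 points with an overlap of 50% and 51.0 points with the 1000 smallest p of each list, which gave 22.0 points for FUL-AG-SEP3. With peaks assigned by gene body or 3 kb upstream, FUL-SEP3 met 5 carpel and fruit genes and 1 meristem and boundary gene. No paired analysis was possible because each list pools its replicates before peak calling, which also leaves no replicate to omit. Read numbers per list are unknown, so fewer reads and less binding cannot be told apart for a peak missing from a list.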
